A study of Mus musculus with 13 samples.

Results

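Apolipoproteins are the protein components of plasma lipoproteins, and 10 of their genes were examined in RNA from mouse liver tumours in which Yap had been lowered: Apoa1, Apoa2, Apoa4, Apoa5, Apoc1, Apoc3, Apoe, Apof, Apoh and Apom. The 10 genes were chosen by name, among 23361 gene symbols in the deposited tables and 15132 genes that passed the filter on low counts. All 10 passed it. Apob, the structural protein of very low density and low density lipoproteins, carried the mark that it was too deeply sequenced to estimate and has no value here.

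The tumours were hepatocellular carcinomas of Mst1-/-; Mst2Flox/Flox mice on a mixed C57BL/6 and 129Sv background, in which Mst2 was deleted in the liver by an injected adenovirus carrying Cre and Mst1 was absent from the whole animal. All libraries, controls included, came from this genotype, and the Mst kinases normally restrain the transcriptional co-activator Yap. Mice were given lipid nanoparticles intravenously for 9 days, carrying siRNA against luciferase (siLuc, a control with no mouse target, 8 libraries) or against Yap (siYap, 5 libraries). Ages, the number of animals and the part of each tumour sampled were not given in the sources used here, so the p-values rest on the spread among libraries, part of which may be technical. In liver, adenovirus and lipid nanoparticles are taken up mainly by hepatocytes, while the RNA came from tumour tissue with all its cell types.

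Libraries held 23637021 to 37043914 fragments, with the lowest totals in siYap replicates 1 and 3. Yap1 itself fell from 9.999 ± 1.37 FPKM (mean ± SD, n = 8) to 3.29 ± 0.845 FPKM (n = 5), a log2 fold change of -1.58 ± 0.17 (SE; adjusted p = 2.36e-05, edgeR quasi-likelihood test with Benjamini-Hochberg adjustment over all tested genes). FPKM, fragments scaled for transcript length and sequencing depth, is the scale of every level given here. Log2 fold changes are siYap over siLuc from the edgeR test, and a gene is said to have risen or fallen where its adjusted p was below 0.05. By that rule 30.8% of all tested genes changed, 16.0% upward and 14.8% downward. Hepatocyte markers were abundant in every library, with a summed level over 12 genes of 22200 to 27680 FPKM in siLuc and 15510 to 29870 FPKM in siYap, 2 of the 12 higher and 4 lower.

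Hepatocytes make and secrete most plasma apolipoproteins. Apolipoprotein A-I and A-II form the scaffold of high density lipoprotein, and apolipoproteins M and F travel on the same particles or exchange between classes. Apolipoproteins C-II and A-V promote hydrolysis of triglyceride in very low density lipoprotein by lipoprotein lipase, whereas C-III and C-I oppose it or the uptake of remnants, and apolipoprotein E is the ligand through which remnants are taken up by the low density lipoprotein receptor family. Several of the genes lie in clusters, and many are known targets of the liver nuclear receptors and of FOXA factors.

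Of the 10 genes, 1 rose (Apoa5), 2 fell (Apom and Apof) and 7 did not pass the test. With 30.8% of all tested genes called, a count of 3 in 10 lies near the background. The median log2 fold change of the 10 was -0.31, against -0.0026 over all tested genes. Apom alone had siYap libraries that all lay below all siLuc libraries, as did 5.84% of all tested genes, and no member had siYap libraries that all lay above, as did 6.32%. Levels covered a wide range. In siLuc the order of mean FPKM was Apoe, Apoc1, Apoa1, Apoh, Apoa2, Apoc3, Apof, Apoa4, Apom and Apoa5. Neighbours in that order overlapped across siLuc libraries except Apoa1 and Apoh, Apoa2 and Apoc3, and Apom and Apoa5.

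**Figure D1:**
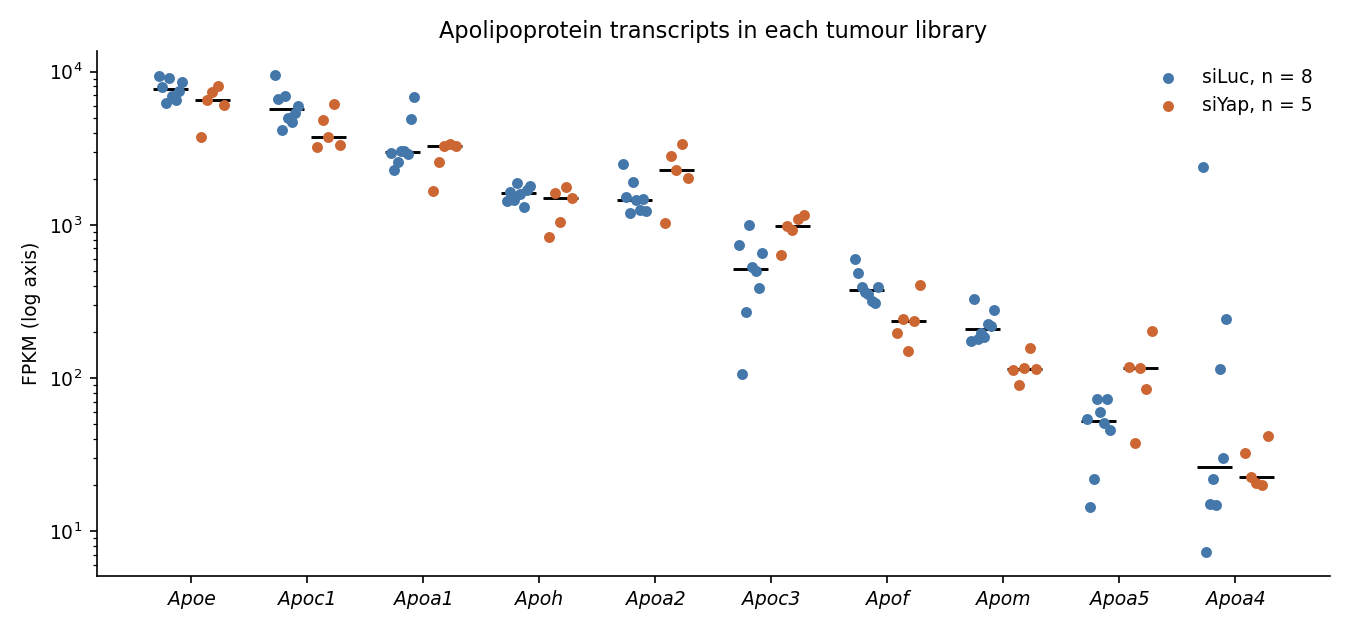
FPKM (log axis) of the 10 apolipoprotein genes in each of 8 siLuc and 5 siYap libraries, with points for libraries and horizontal lines for group medians, in order of level. Apom is the gene whose 2 groups do not overlap, and Apoa4 stands out by 1 siLuc library at 2368 FPKM.

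The sequences just upstream of 3 genes are shown because these genes carry the main differences: Apom, which fell without overlap between groups, Apoa5, which rose, and Apoc2, the apolipoprotein outside the 10 with the largest fall. Each is the 140 bases before the annotated start, from RefSeq on build GRCm38.p6, 5′ to 3′ on the strand of the gene, and capitals mark matches on either strand to the motifs searched.
Apom, chr17:35131802-35131941, minus strand: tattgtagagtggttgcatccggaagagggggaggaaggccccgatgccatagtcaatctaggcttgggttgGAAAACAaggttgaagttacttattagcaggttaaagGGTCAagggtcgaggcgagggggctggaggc
Apoa5, chr9:46268468-46268607, plus strand: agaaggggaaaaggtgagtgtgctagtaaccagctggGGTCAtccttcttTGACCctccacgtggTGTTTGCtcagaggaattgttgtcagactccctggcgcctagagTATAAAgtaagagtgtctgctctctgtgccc
Apoc2, chr7:19677942-19678081, minus strand: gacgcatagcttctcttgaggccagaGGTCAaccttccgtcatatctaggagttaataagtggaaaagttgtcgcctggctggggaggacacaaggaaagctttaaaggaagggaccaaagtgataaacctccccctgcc
The motifs searched were the TATA box TATAAA, the nuclear receptor half-site GGTCA, the TEAD motif GGAATG, the Tcf/Lef motif CTTTGAT and the Fox motif TGTTTNC. Over 32851 windows of 250 bases upstream of mouse genes they were present in 12.4%, 35.2%, 12.6%, 3.21% and 17.8%. The Apoa5 window held TATAAA at 31 to 26 bases before the start, 2 GGTCA matches at 103 to 99 and 90 to 86 bases, and a TGTTTNC match at 75 to 69 bases. In Apom, GGTCA lay 31 to 27 bases before the start and TGTTTNC 68 to 62 bases before it. Apoc2 had GGTCA at 114 to 110 bases. Of the 10 genes, 7 had an entry in the table of promoters. Among those 7, over 250 bases, GGAATG (TEAD proteins are the DNA-binding partners of Yap) matched in Apoa4 alone and CTTTGAT in none. GGTCA matched in Apoa5, Apoe, Apoh and Apom. Apom held 2 such matches, the second outside the 140 bases shown. TGTTTNC matched in Apoa1, Apoa2, Apoa5, Apoh and Apom, and TATAAA in Apoa2 and Apoa5. A match is a description of the letters and no measure of binding.

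Among the apolipoproteins of high density lipoprotein within the set chosen by name, Apom showed the clearest difference. Apom (chr17:35128997-35131801) encodes the lipocalin that carries sphingosine 1-phosphate on these particles. Its level in siLuc replicates 1 to 8 was 175, 327, 181, 197, 184, 224, 220 and 278 FPKM, and in siYap replicates 1 to 5 it was 113, 89.7, 116, 157 and 115 FPKM. The highest siYap library lay below the lowest siLuc library. Mean levels were 223 ± 53.5 FPKM (n = 8) and 118 ± 24.3 FPKM (n = 5). Apom was 1.87-fold lower in siYap, a log2 fold change of -0.90 ± 0.17 (SE; adjusted p = 0.00134, edgeR). The fall passed the test without each of the 13 libraries in turn, at an adjusted p between 0.00112 and 0.00489.

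Apof (chr10:128268699-128271250), which encodes the lipid transfer inhibitor protein, also fell, though less securely. In siLuc its libraries were at 597, 485, 395, 363, 351, 318, 306 and 391 FPKM, and in siYap at 198, 241, 151, 234 and 404 FPKM. Of the 5 siYap libraries, 4 lay below every siLuc library, and siYap replicate 5 lay within the siLuc range. The means were 401 ± 96.6 FPKM (n = 8) and 245 ± 95.5 FPKM (n = 5), with a log2 fold change of -0.68 ± 0.25 (SE; adjusted p = 0.0472, edgeR). Leaving out 1 library at a time, the call was kept without siLuc replicate 6 (adjusted p = 0.0465), without siLuc replicate 7 (0.0427) and without siYap replicate 5 (0.0141, log2 fold change -0.90). It was lost without siLuc replicate 1 (0.0701), 2 (0.0704), 3 (0.0630), 4 (0.0537), 5 (0.0524) or 8 (0.0570), and without siYap replicate 1 (0.0736), 2 (0.0847), 3 (0.124) or 4 (0.0912). The call was also lost when the counts of libraries that share a number in their file names were summed (adjusted p = 0.17, edgeR). The neighbouring gene Apon, 12797 bases away and in the same family, was at 168 ± 74.4 FPKM in siLuc (n = 8) and 106 ± 39.0 FPKM in siYap (n = 5), with a log2 fold change of -0.62 ± 0.29 that did not pass the test (adjusted p = 0.118, edgeR).

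The main scaffold proteins of high density lipoprotein did not pass the test. Apoa1 (chr9:46228630-46230469) was at 2921, 2280, 2567, 3030, 3050, 2918, 4871 and 6787 FPKM in siLuc and at 1668, 2583, 3279, 3375 and 3284 FPKM in siYap. The siYap libraries lay within or below the siLuc range, and 2 siLuc libraries, replicates 7 and 8, stood above all others. Between groups the log2 fold change was -0.32 ± 0.26 (SE; adjusted p = 0.356, edgeR). Apoa2 (chr1:171221564-171226379) was at 2491, 1511, 1185, 1897, 1452, 1254, 1470 and 1228 FPKM in siLuc and at 1028, 2793, 2292, 3373 and 2026 FPKM in siYap. Here siYap replicates 2 and 4 were above every siLuc library while siYap replicate 1 was below them all. Apoa2 had a log2 fold change of 0.50 ± 0.27 (SE; adjusted p = 0.170, edgeR). Without siLuc replicate 1, its highest control, Apoa2 was higher in siYap with a log2 fold change of 0.73 (adjusted p = 0.0125), which raises the number of members called higher from 1 to 2.

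Of the proteins that set the rate of triglyceride clearance, Apoa5 rose. Apoa5 (chr9:46268608-46271921) encodes a liver protein of very low abundance in plasma that lowers plasma triglyceride. It was at 53.9, 14.4, 21.8, 73.2, 59.6, 51.1, 72.6 and 45.6 FPKM in siLuc and at 117, 37.4, 116, 84.8 and 203 FPKM in siYap. Of the 5 siYap libraries, 4 lay above every siLuc library, with siYap replicate 2 inside the siLuc range. Means were 49.0 ± 21.5 FPKM (n = 8) and 112 ± 60.3 FPKM (n = 5), and the log2 fold change was 1.24 ± 0.41 (SE), 2.36-fold higher (adjusted p = 0.0355, edgeR). The call was lost without siLuc replicate 3 (adjusted p = 0.0548), siLuc replicate 6 (0.0539), siLuc replicate 8 (0.0538), siYap replicate 1 (0.0842), siYap replicate 3 (0.0659) or siYap replicate 5 (0.107), and was kept without each of the other 7 libraries.

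Apoc3 (chr9:46233050-46235636), whose product inhibits lipoprotein lipase and remnant uptake and raises plasma triglyceride, was at 739, 107, 268, 998, 533, 499.7, 384 and 657 FPKM in siLuc and at 635, 976, 918, 1089 and 1156 FPKM in siYap. The siYap libraries ran from the upper part of the siLuc range to just above it. Among siLuc libraries Apoc3 differed 9.36-fold between the highest and the lowest, and among siYap libraries 1.82-fold. Its log2 fold change was 0.86 ± 0.39 (SE; adjusted p = 0.105, edgeR), and no library left out brought the adjusted p below 0.05. Apoa5 and Apoc3, which have opposite known effects on triglyceride, both had higher mean levels in siYap, but Apoa5 alone passed the test and the difference between their responses was not tested.

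Apoa4 (chr9:46240844-46243458), an apolipoprotein made chiefly by the intestine and, in mice, also induced in fatty or fasted liver, was set by 1 library. Its levels in siLuc were 2368, 7.31, 15.0, 21.9, 14.8, 115, 30.2 and 241 FPKM, and in siYap 32.4, 22.6, 20.6, 20.0 and 42.0 FPKM. The medians, 26.0 FPKM in siLuc and 22.6 FPKM in siYap, were close, while siLuc replicate 1 was about as high as Apoa2. The log2 fold change of -4.03 ± 1.60 (SE; adjusted p = 0.0699, edgeR) became -1.03 (adjusted p = 0.341) without that library, and by DESeq2 with all libraries it was -0.95 (adjusted p = 0.339). Of 6 enterocyte markers, Cdx2 and Alpi were at 0 in all 13 libraries, and the 2 that could be tested, Vil1 and Fabp2, were both lower in siYap. The summed enterocyte markers ran from 39.2 to 169 FPKM in siLuc and from 22.3 to 58.2 FPKM in siYap. Like Apoa4, they were highest in siLuc replicate 1 and, among siLuc libraries, lowest in replicate 2. Other controls did not follow this order. In siLuc replicate 6 the markers were at 156 FPKM and Apoa4 at 115 FPKM. In siLuc replicate 8 the markers were at 55.3 FPKM and Apoa4 at 241 FPKM. The part of enterocytes in the Apoa4 values was not tested.

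Apoe and Apoc1 were the most abundant of the 10 transcripts in nearly every library and did not pass the test. Apoe (chr7:19696244-19701310) was at 9296, 7878, 6226, 9024, 6971, 6520, 7509 and 8619 FPKM in siLuc and at 3749, 6569, 7394, 8070 and 6040 FPKM in siYap. The groups overlapped except for siYap replicates 1 and 5, which were below every siLuc library. The log2 fold change was -0.30 ± 0.20 (SE; adjusted p = 0.259, edgeR). Apoc1 (chr7:19689480-19692659), whose product slows remnant uptake and inhibits cholesteryl ester transfer, was at 9563, 6636, 4139, 6906, 4967, 4704, 5389 and 5950 FPKM in siLuc and at 3200, 4829, 3749, 6123 and 3335 FPKM in siYap. Here siYap replicates 1, 3 and 5 lay below every siLuc library. The log2 fold change was -0.51 ± 0.22 (SE; adjusted p = 0.0900, edgeR), and it passed the test without siYap replicate 4 (adjusted p = 0.0329) and under scaling by library totals alone (0.0284).

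Macrophages also transcribe Apoe and Apoc1. Of 13 macrophage markers tested, 8 were lower and 0 higher in siYap by edgeR (9 lower and 1 higher at an unadjusted p under 0.05, and 9 lower and 0 higher by DESeq2). Their median log2 fold change was -0.74, and their summed level was 791 to 1569 FPKM in siLuc and 422 to 685 FPKM in siYap. Lyz2 alone was at 473 to 1152 FPKM in siLuc and 189 to 399 FPKM in siYap. Of the 5 not called, Cd68, Cd5l and Gpnmb had log2 fold changes of 0.59, 0.95 and 0.46, and Marco and Vsig4 of -1.45 and -1.72. The part of macrophages in the Apoe and Apoc1 values was not tested, and in whole tumour RNA fewer cells of a type cannot be told apart from less RNA per cell.

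Apoh (chr11:108395297-108414396), which encodes the phospholipid-binding β2-glycoprotein I, was the steadiest of the 10 in the controls. It was at 1432, 1646, 1441, 1862, 1591, 1303, 1685 and 1793 FPKM in siLuc, a 1.43-fold range, and at 838, 1603, 1042, 1771 and 1501 FPKM in siYap. The low siYap values were those of replicates 1 and 3, the libraries with the fewest fragments, and whether depth bears on them was not tested. The log2 fold change was -0.23 ± 0.17 (SE; adjusted p = 0.309, edgeR). Exons of Apoh overlap those of Prkca on the other strand, and whether the counting used strand is not given in the sources used here.

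**Figure D2:**
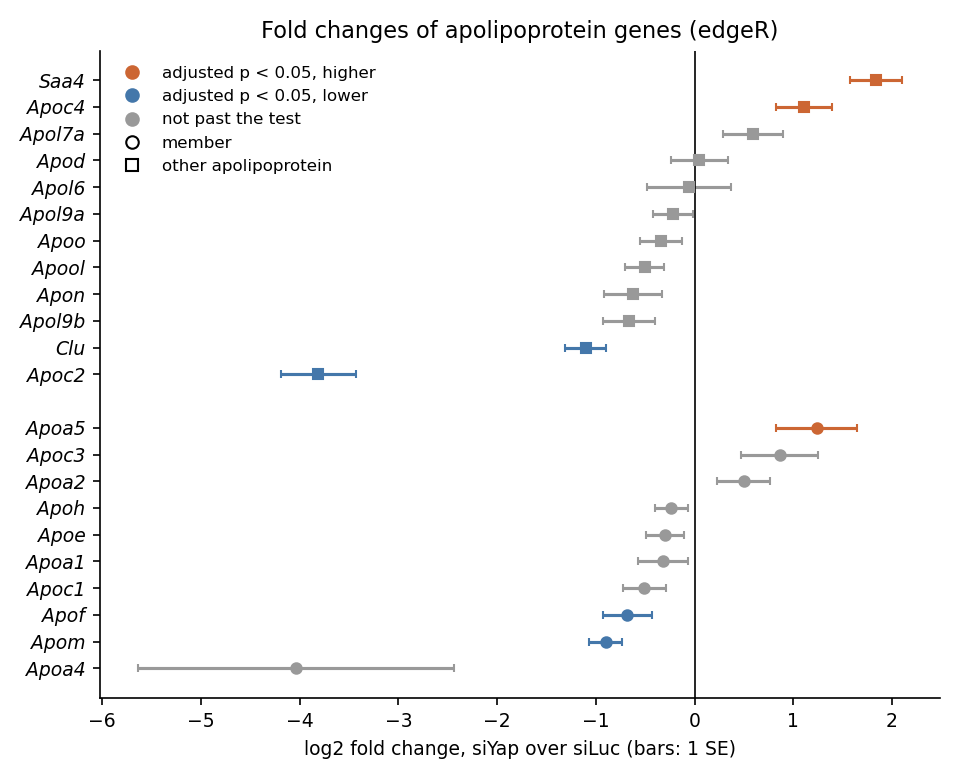
Log2 fold change, siYap over siLuc, of the 10 members (circles) and 12 other apolipoprotein genes (squares) from the edgeR test, with bars of 1 SE, coloured by whether the adjusted p was below 0.05. Apoc2 at -3.81 is the lowest of those past the test, and Apoa4, with 1 siLuc library far above the others, has the widest bar.

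Outside the 10, 12 further genes named as apolipoproteins or carried on lipoproteins were tested, of which 2 rose and 2 fell. These counts, 16.7% and 16.7%, lie near the 16.0% and 14.8% of all tested genes that rose and fell. Apoc2, the obligate activator of lipoprotein lipase, had the largest fall. It was at 1577, 821, 991, 539, 720.4, 1148, 798 and 1254 FPKM in siLuc and at 80.1, 51.8, 43.1, 74.3 and 93.7 FPKM in siYap. Every siYap library was below 100 FPKM and every siLuc library above 500 FPKM. Apoc2 was 14.0-fold lower in siYap, a log2 fold change of -3.81 ± 0.38 (SE; adjusted p = 1.05e-05, edgeR).

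Apoc4, a minor apolipoprotein of very low density lipoprotein whose gene ends 142 bases from Apoc2, went the other way. It was at 319, 157, 184, 375, 194, 162, 169 and 137 FPKM in siLuc and at 194, 496, 504, 623 and 529 FPKM in siYap. Of the siYap libraries, 4 were above every siLuc library and siYap replicate 1 was at the level of the controls. Apoc4 was 2.15-fold higher in siYap, a log2 fold change of 1.11 ± 0.29 (SE; adjusted p = 0.00979, edgeR). Within each library, the ratio of Apoc4 to Apoc2 FPKM was 0.109 to 0.695 in siLuc (median 0.197) and 2.43 to 11.7 in siYap (median 8.38), so the ratio turned from below 1 in all 8 controls to above 1 in all 5 treated libraries. GENCODE has a read-through gene, Gm44805, that shares exons with both and is not among the deposited symbols, and how the counting assigned fragments from such a transcript is not known.

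**Figure D3:**
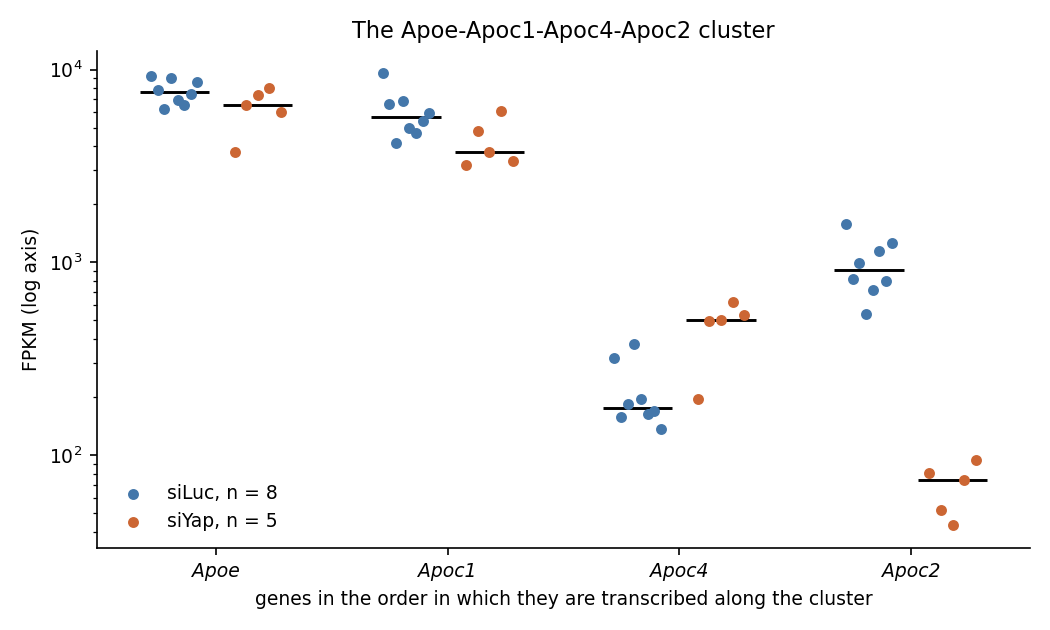
FPKM (log axis) of the 4 genes of the Apoe cluster in each siLuc (n = 8) and siYap (n = 5) library, in the order in which they are transcribed, with lines at group medians. Apoc4 and Apoc2 lie side by side and moved in opposite directions. Groups overlapped for Apoe, Apoc1 and Apoc4, and Apoc2 alone showed no overlap.

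Of the remaining 10, Saa4, a constitutive high density lipoprotein protein, rose and Clu, apolipoprotein J, fell, both without overlap between groups. Saa4 was at 25.1 ± 9.999 FPKM in siLuc (n = 8) and 81.9 ± 13.4 FPKM in siYap (n = 5), a log2 fold change of 1.83 ± 0.26 (SE; adjusted p = 0.000193, edgeR). Clu was at 788 ± 181 FPKM and 365 ± 71.6 FPKM, a log2 fold change of -1.10 ± 0.21 (SE; adjusted p = 0.00130, edgeR). Biliary epithelium is another source of Clu, and of 7 cholangiocyte markers 3 were lower and 0 higher in siYap (edgeR; also 3 and 0 at an unadjusted p under 0.05 and by DESeq2). The 3 were Epcam, Sox9 and Spp1. Of the 4 not called, Krt19 and Krt7 had log2 fold changes of 0.23 and 0.12, and Cftr and Muc1 of -0.63 and -0.16. Summed levels of the 7 were 1938 to 5054 FPKM in siLuc and 159 to 1141 FPKM in siYap, most of it Spp1. The part of biliary cells in the Clu values was not tested. Apod, Apol6, Apol7a, Apol9a, Apol9b, Apon, Apoo and Apool did not pass the test, with log2 fold changes from -0.66 (Apol9b) to 0.59 (Apol7a). Apool, a mitochondrial protein, was close to the threshold (log2 fold change -0.51, adjusted p = 0.0607) and passed it without siLuc replicate 2 (0.0384) or siYap replicate 4 (0.0329), by DESeq2 (0.0475), by limma on log2(FPKM + 1) (0.0488) or log2(FPKM + 0.1) (0.0486), under upper-quartile scaling (0.0362) or library totals alone (0.0104), after summing libraries that share a file-name number (0.0316) and with that number as random effect (0.0376). Apol9b (adjusted p = 0.0668) passed it without siLuc replicate 7 (0.0400) and by DESeq2 (0.0416), and Apol7a (0.154) without siLuc replicate 4 (0.0270). Apol9a and Apol9b are near-identical copies, so how their fragments were divided is uncertain.

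Of the 10 genes, 6 lie in clusters. On chromosome 9, Apoa1, Apoc3, Apoa4 and Apoa5 lie within 43292 bases, with gaps of 2580, 5207 and 25149 bases, and their log2 fold changes were -0.32, 0.86, -4.03 and 1.24, of which that of Apoa5 passed the test and that of Apoa4 was -1.03 without siLuc replicate 1. Differences between the genes were not tested. On chromosome 7, Apoc2, Apoc4, Apoc1 and Apoe lie within 29732 bases, with gaps of 142, 8019 and 3584 bases, and their log2 fold changes were -3.81, 1.11, -0.51 and -0.30, of which those of Apoc2 and Apoc4 passed.

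Within a library the make-up of apolipoprotein transcripts can be given without any scaling between libraries, as a share of the summed FPKM of the 10 genes. Apoe made up 35.5 ± 2.35% in siLuc (n = 8) and 34.2 ± 2.58% in siYap (n = 5). Apoc1 made up 27.1 ± 3.38% and 23.1 ± 3.89%, and Apoa1 16.2 ± 5.57% and 15.3 ± 2.20%. The share of Apoa2 was 4.73 to 8.41% in siLuc and 8.88 to 14.1% in siYap, and that of Apoc3 was 0.510 to 4.09% in siLuc and 4.48 to 6.39% in siYap. These 2 shares did not overlap between groups, although neither gene passed the test of its level. The shares of all other members overlapped. That of Apom, whose levels did not overlap, was 0.590 to 1.56% in siLuc and 0.454 to 0.974% in siYap. Shares are taken within the 10 genes, so no percentage over all tested genes stands beside these. Apoe and Apoc1 together made up 62.7 ± 4.03% in siLuc (n = 8) and 57.3 ± 3.18% in siYap (n = 5). The summed FPKM of the 10 was 22043 ± 4420 in siLuc (n = 8) and 18560 ± 4570 in siYap (n = 5), and the 10 genes took 1.98 ± 0.471% and 1.53 ± 0.181% of all fragments. Shares within a library are not independent of each other, so a lower share of 1 gene raises the others.

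The file names carry a code whose first digit is 6, 7 or 8 and splits the libraries into sets with both treatments, 2 against 2, 5 against 2 and 1 against 1 (siLuc against siYap). What the digit stands for is not given in the sources used here. The difference of mean log2 CPM, siYap minus siLuc, was -1.20, -0.59 and -1.26 in the 3 sets for Apom and 1.33, 0.93 and 2.16 for Apoa5. For Apof it was -1.21, -0.90 and 0.06, so the set with 1 library per group, which holds siYap replicate 5, did not share the fall. Apoc2 gave -4.10, -3.86 and -3.73, and Apoc4 0.55, 1.43 and 1.96. With the digit as a factor, the adjusted p was 0.00199 for Apom, 0.00728 for Apof and 0.0588 for Apoa5.

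**Figure D4:**
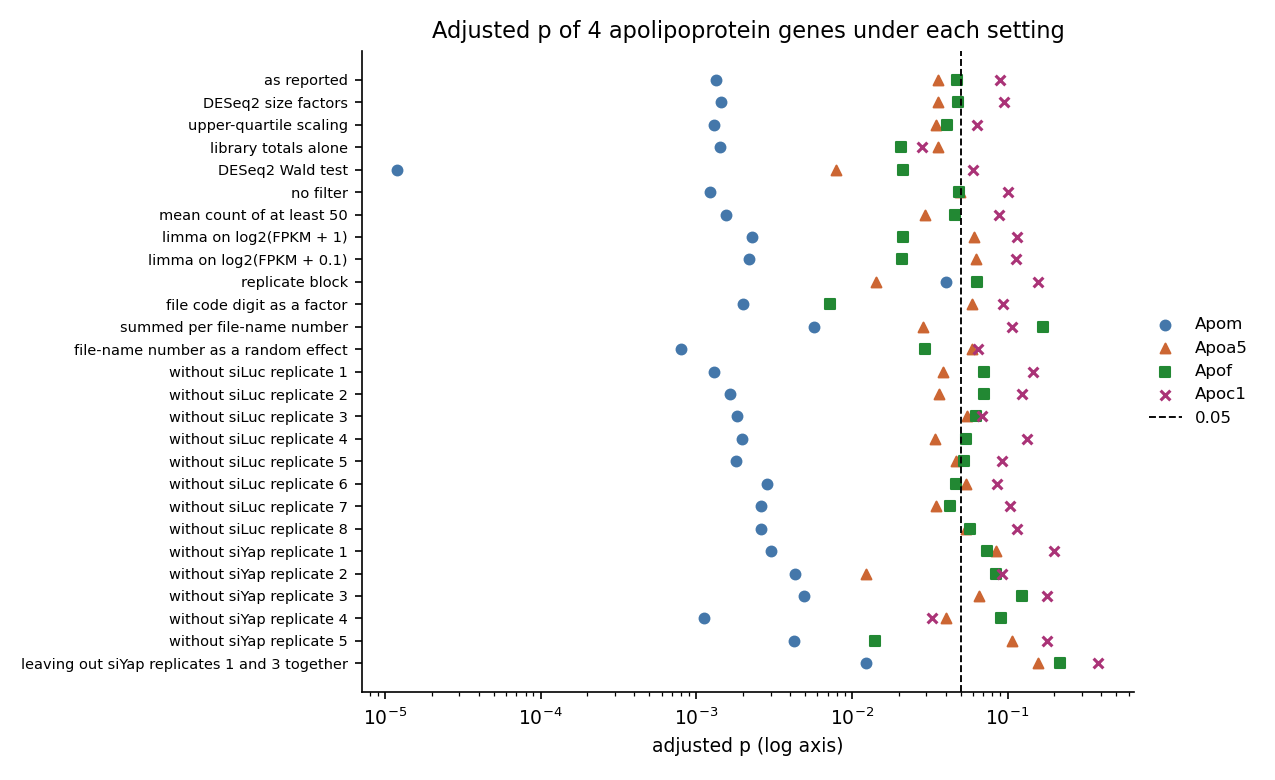
Adjusted p (log axis) of Apom, Apoa5, Apof and Apoc1 under the reported test and each alternative setting, with a dashed line at 0.05. Apom stays to the left of the line in every setting, while Apoa5 and Apof cross it in several.

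Across the 13 libraries, after each group's mean was subtracted from the log2 CPM, 3 members varied together: Apoa2 and Apoc1 (Pearson r = 0.898, Spearman rho = 0.879), Apoc1 and Apoe (0.897 and 0.901) and Apoa2 and Apoe (0.882 and 0.846). Each of the 3 had Etfb, a subunit of the mitochondrial electron transfer flavoprotein, among the 3 most alike of 5350 genes that averaged 10 FPKM or more, with r of 0.926 for Apoa2, 0.925 for Apoc1 and 0.905 for Apoe. Apoc3 was most like Gpt (r = 0.932, rho = 0.775), alanine aminotransferase, and Slc27a5 (r = 0.914, rho = 0.687), bile acyl-CoA synthetase. Without the 2 libraries farthest from the median of Apoc3, siLuc replicates 2 and 4, these fell to 0.729 and 0.668. Apoa5 was most like Onecut2 (r = 0.905, rho = 0.874), a liver transcription factor, and Apoh most like Sdhd (r = 0.953, rho = 0.940), a subunit of succinate dehydrogenase. Apom was most like Ddah1 (r = 0.790, rho = 0.885). The other most alike genes were Scrn3 for Apoc1 (r = 0.957), Reep3 for Apoa4 (0.944), Tmem11 for Apoa2 (0.943), Aspscr1 for Apoe (0.921), H3f3b for Apof (0.912) and Herpud2 for Apoa1 (0.835). All these values share the same libraries, depths and scaling and are a description, and the best of 5350 genes over 13 libraries is high by selection.

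Genes that act on lipoproteins or on apolipoprotein genes were read from lists drawn up by role, with earlier results of these data known. The counts may therefore not be independent of how the lists were chosen. Over the 5 lists, with the 12 other apolipoproteins included, 37 of 90 tested genes rose (41.1%) and 8 fell (8.89%), against 16.0% and 14.8% of all tested genes, and 45 did not pass the test. The median log2 fold change was 0.33. Without siYap replicate 3 the counts were 29 and 4.

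In lipoprotein assembly and secretion 7 of 19 rose and 2 fell (median log2 fold change 0.22). Mttp, the transfer protein that loads lipid onto apolipoprotein B, rose from 37.0 ± 7.02 FPKM (n = 8) to 71.4 ± 13.8 FPKM (n = 5), a log2 fold change of 0.95 ± 0.15 (SE; adjusted p = 0.000441, edgeR). Dgat2, which makes triglyceride, rose by 0.77 ± 0.14 on the log2 scale (adjusted p = 0.000891, edgeR). A1cf, a cofactor of Apob mRNA editing, rose by 0.83 ± 0.17 on that scale (adjusted p = 0.00282, edgeR), and siLuc replicate 8 at 44.5 FPKM was already within the siYap range of A1cf.

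Among plasma enzymes and remodelling proteins 8 of 13 rose and 0 fell by edgeR (8 and 1 at an unadjusted p under 0.05, 8 and 0 by DESeq2), with a median log2 fold change of 0.78. Lcat, which esterifies cholesterol on high density lipoprotein with apolipoprotein A-I as its cofactor, rose from 66.7 ± 12.4 FPKM (n = 8) to 136 ± 18.7 FPKM (n = 5), a log2 fold change of 1.06 ± 0.16 (SE; adjusted p = 0.000246, edgeR). Pon1, the paraoxonase carried on high density lipoprotein, rose from 98.1 ± 82.6 FPKM to 914 ± 501 FPKM (log2 fold change 3.22 ± 0.61; adjusted p = 0.00171, edgeR). Lipg, endothelial lipase, rose from 0.336 ± 0.245 FPKM to 6.93 ± 3.16 FPKM (log2 fold change 4.37 ± 0.51; adjusted p = 4.89e-05, edgeR).

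Among receptors and transporters for uptake and efflux 8 of 20 rose and 4 fell (median log2 fold change 0.49). The 3 with the smallest p, all receptors that bind apolipoprotein E, rose. Lrp1 went from 26.3 ± 3.56 FPKM (n = 8) to 72.6 ± 31.1 FPKM (n = 5), with a log2 fold change of 1.502 ± 0.21 (SE; adjusted p = 0.000119, edgeR). Vldlr went from 1.54 ± 1.28 FPKM to 29.8 ± 23.2 FPKM, with a log2 fold change of 4.27 ± 0.65 (adjusted p = 0.000365, edgeR). The groups of Vldlr overlapped, with siYap replicate 1 at 3.16 FPKM and siLuc replicate 8 at 4.52 FPKM. Sorl1 went from 3.06 ± 0.796 FPKM to 6.91 ± 2.14 FPKM, with a log2 fold change of 1.20 ± 0.20 (adjusted p = 0.000582, edgeR). Lrp2, megalin, chosen after its values were seen, fell from 2.96 ± 3.49 FPKM to 0.0826 ± 0.0276 FPKM (log2 fold change -5.13 ± 1.26; adjusted p = 0.00790, edgeR). The groups overlapped, because Lrp2 varied widely among the controls. In siLuc replicates 1, 5 and 6 it was at 0.115, 0.1146 and 0.08503 FPKM, within the siYap range of 0.04455 to 0.1161 FPKM. In siLuc replicates 2, 3, 4, 7 and 8 it ran from 0.6534 to 8.76 FPKM, above every siYap library.

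Of 26 transcription factors known at apolipoprotein genes, 12 rose and 0 fell by edgeR (13 and 1 at an unadjusted p under 0.05, 12 and 0 by DESeq2), with a median log2 fold change of 0.46. Rxra, the partner of most liver nuclear receptors, rose from 29.1 ± 3.39 FPKM (n = 8) to 56.6 ± 12.6 FPKM (n = 5), a log2 fold change of 0.99 ± 0.13 (SE; adjusted p = 9.2e-05, edgeR). Nr2f2, COUP-TFII, rose from 4.91 ± 1.13 FPKM to 9.12 ± 3.30 FPKM (log2 fold change 0.83 ± 0.16; adjusted p = 0.00134, edgeR). Hnf4a, the best known activator of the chromosome 9 cluster and also chosen after its values were seen, was at 87.5 ± 16.5 FPKM and 99.6 ± 28.5 FPKM with a log2 fold change of 0.21 ± 0.16 that did not pass the test (adjusted p = 0.340, edgeR).

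**Figure D5:**
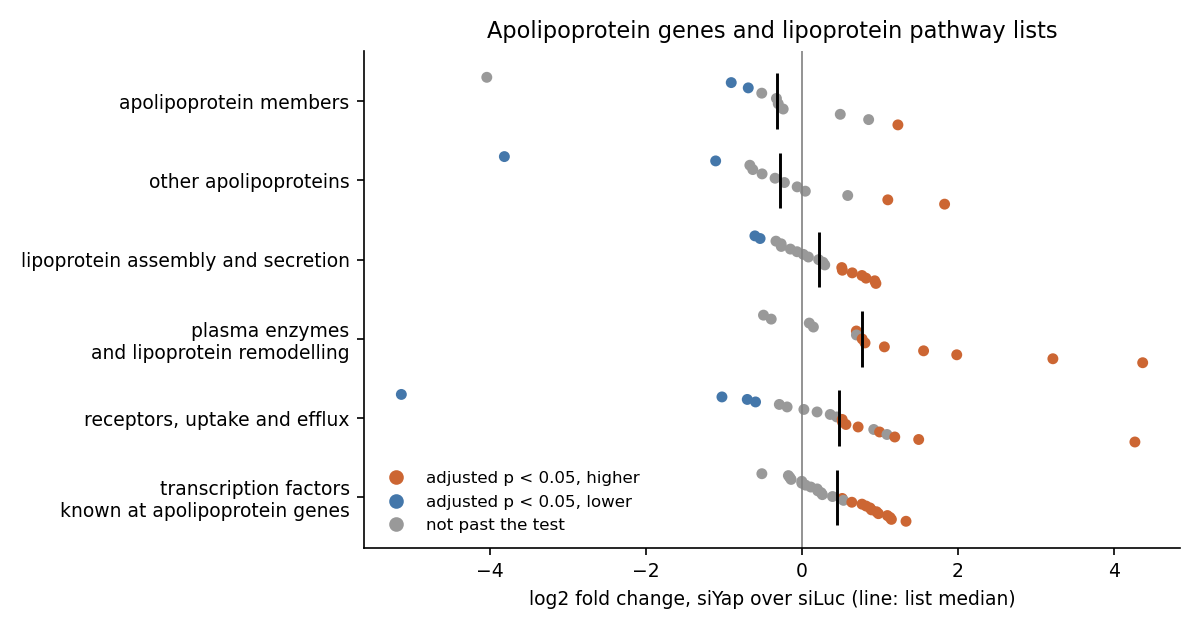
Log2 fold change, siYap over siLuc, of each gene in the apolipoprotein list and the 5 pathway lists, coloured by whether the adjusted p was below 0.05, with a vertical line at each list's median. The medians of the assembly, enzyme, receptor and transcription factor lists lie to the right of 0, from 0.22 to 0.78, and those of the apolipoproteins to the left.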

How the data were processed

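RNA-seq libraries of 8 siLuc and 5 siYap tumour samples were made with a ribosomal RNA depletion kit, per the labels' protocols. The submitters' processing notes name mm10, Cuffdiff 2.1.1 and Cufflinks, TopHat2 2.0.8 and Trimmomatic 0.30. Annotation, strand setting and treatment of multiply mapped reads were not given in the sources used here. Per the file headers, the authors deposited 1 table per library with estimated counts (raw fragments) and FPKM for 23361 symbols. Of the deposited estimated counts, 97.6% to 98.0% per library lay within 1e-06 of whole. The deposited FPKM were scaled by Cuffdiff. Replicate indices in the siYap tables were 0, 1, 5, 6 and 7, so libraries not analysed here may have entered that scaling. Alb, Apob and Trf, marked as too deep, were left out.

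Estimated counts were rounded and tested with edgeR 4.0.16 in R 4.3.3 (quasi-likelihood, robust, TMM, default filter by group, 15132 genes, no covariates), with Benjamini-Hochberg adjustment and a threshold of 0.05. Each SE was obtained by dividing the log2 fold change by the square root of F. Positions are from RefSeq on GRCm38.p6. The members and lists were chosen with earlier results of these data known. Named genes were all members, Yap1, all other apolipoproteins that passed the filter, the 3 called genes with the smallest p in each further list, and for likeness the 3 genes with the highest r. One gene that the rule takes is not reported here. Alternatives used DESeq2 1.42.0 and limma 3.58.1, other scalings and filters, other thresholds, covariates and libraries left out.

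No 2 libraries of a group agreed within sampling noise (chi-square per degree of freedom at least 34.5), so none was treated as a repeat of another. That check cannot tell separate animals from samples of the same animal. In the file names, siLuc replicates 1 and 2 share a number (89), as do siLuc replicates 5, 6 and 7 (96). So do siYap replicates 1 and 2 (90) and siYap replicates 3 and 4 (99). What the number stands for is not given in the sources used here. On simulated data with 50 genes changed per size among 15132, the test recovered 3 at 1.5-fold, 20 at 2-fold, 43 at 4-fold and 46 at 8-fold, and called 5 unchanged genes. Far fewer genes were changed there than the 30.8% called in the data. The adjustment is stricter when fewer genes change, so these recoveries do not measure how many changes were missed here.

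The marker lists other than those named in the report gave 2 of 7 endothelial, 3 of 7 stellate and fibroblast and 2 of 6 lymphocyte and granulocyte genes higher and 0 lower in siYap (edgeR, the same at an unadjusted p under 0.05 and by DESeq2).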

Additional observations from a re-analysis of the deposited data

Results flagged for a closer look

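Levels of 35 named genes in 2 groups were examined for a library far from the rest of its group (Dixon's test at 95%), which chance gives in about 1 of 20 groups. It was seen in 7 of 70 gene and group combinations. Apoa4 was at 2368 FPKM in siLuc replicate 1, with the other siLuc libraries at 7.31 to 241 FPKM. Apon was at 332 FPKM in the same library, with the others at 101 to 194 FPKM. Apol7a was at 84.9 FPKM in siLuc replicate 4, with the others at 21.3 to 41.6 FPKM. In siLuc replicate 8, A1cf was at 44.5 FPKM (others 20.3 to 28.8 FPKM) and Vldlr at 4.52 FPKM (others 0.441 to 1.75 FPKM). In siYap replicate 1, Apod was at 1.15 FPKM (others 0.430 to 0.620 FPKM) and Nr2f2 at 14.8 FPKM (others 6.77 to 8.91 FPKM).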

How the results depend on the processing

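Of 270 values of the 10 members under the alternatives, 240 kept direction and side of the threshold, 26 lost a call, 3 gained one and 1 changed sign. All 26 losses were in Apof (14 lost, 13 kept) and Apoa5 (12 lost, 15 kept). Apom was called lower under every alternative. The 7 members not called as reported had no call to lose. Genes called overall numbered 4668, and 2984 without siYap replicates 1 and 3 together, 2362 at an adjusted p under 0.01 and 3325 to 4633 without 1 library. Members called higher, 1 as reported, were 0 under limma on log2(FPKM + 1) or log2(FPKM + 0.1), with the file code digit as a factor, with a random effect of the file-name number, without siYap replicates 1 and 3 together and at the stricter threshold, and 0 to 2 without 1 library. Members called lower, 2 as reported, were 1 with counts summed per file-name number, without siYap replicates 1 and 3 and at the stricter threshold. They were 1 to 2 without 1 library and 3 under scaling by library totals alone. Pathway genes called lower, 8 as reported, were 4 without siYap replicates 1 and 3 and at the stricter threshold. They were 4 to 9 without 1 library, 11 under library totals alone, and 10 by DESeq2 or with the file code digit as a factor. Those called higher, 37 as reported, were 29 to 37 without 1 library and 25 to 40 under the other alternatives. A1cf lost its call with summed counts (adjusted p = 0.0617). Genes with little difference changed sign: Apod (0.05) was -0.0298 with the digit, -0.12 with summed counts, -0.27 without siYap replicates 1 and 3, and -0.19 to 0.16 without 1 library, and Apol6 (-0.06) was 0.0046 with summed counts, 0.0449 with the random effect, and -0.2123 to 0.0891 without 1 library. The cause of these changes was not tested. Scaling by library totals alone moved the median of all genes from -0.0026 to -0.05 and the calls from 2422 higher and 2246 lower to 1982 and 2747.

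The groups share replicate numbers 1 to 5, but same-numbered libraries did not deviate together (r of -0.12, 0.13, 0.07, 0.12 and -0.09; 2 of 5 correlated best with their own number), so the numbers were not treated as pairs. With the number as a block, 2325 genes were called, members called higher were 1 and lower 1, pathway genes called lower were 4, Apof had an adjusted p of 0.0641, Apoc4 0.0810 and Apol9b 0.0457, and Apoa4 (0.0941) and Apod (-0.0807) changed sign.

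The members had at least 456 fragments in every library. What depth and the number of libraries contribute to the members that did not pass was not tested.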
